A study of Mus musculus with 6 samples.

Results

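The solute carriers are membrane transporters that move metals, sugars, amino acids, nucleosides and ions into cells, out of cells or between compartments. They were examined in 3 clones derived from the mouse T lymphoma EL4, on 6 Affymetrix mouse arrays. A probe set was a member when its deposited gene name began with "Solute carrier" in either of the authors' lists of differing probe sets. This gave 28 probe sets for 23 genes, out of 2451 listed probe sets and 45101 on the array. All 28 came from the list comparing V7 with WT2 (2420 probe sets) and 0 from the list comparing C5 with V7 (102 probe sets). The difference between V7 and WT2 therefore chose every member, and it is given here as a description: calls in that contrast are counted beside those of all probe sets, but they are no evidence of a difference. Probe sets outside both lists carry no gene name here, so solute carriers that the authors did not list were not analysed.

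C5 is a clone labelled resistant to PMA (a phorbol ester that activates protein kinase C), adherent to plastic and highly metastatic. V7 is labelled PMA-resistant, adherent and metastatic. WT2 is labelled PMA-sensitive, non-adherent and non-metastatic. Cells of all 3 lines were kept overnight without serum and had no other treatment, and each line gave 2 aliquots run in parallel. Every phenotype is carried by 1 clone or, for PMA resistance and adhesion, by a pair of clones, and nothing in the labels says that aliquots came from separate cultures, so errors and p-values reflect aliquot-to-aliquot variation only, possibly technical. In total RNA of a culture, fewer cells with a transcript and less of it per cell cannot be told apart.

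Solute carriers are numbered in families that mostly share a substrate. The zinc carriers fall into a pair of opposed families: members of family 39 (ZIP proteins) bring zinc into the cytosol, and members of family 30 (ZnT proteins) remove it. Cells adjust zinc with the transcription factor Mtf1, which binds metal response elements and drives metallothioneins and the exporter Slc30a1 when zinc is high. Family 2 (GLUT proteins) carries sugars by facilitated diffusion, and family 16 carries lactate and pyruvate with protons; both are prominent in glycolytic lymphocytes and tumours.

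Promoter sequences of 2 zinc carriers that differed in opposite directions are shown, with the metal response core marked where it occurs. Each runs 5′ to 3′ on the gene's strand in the mouse build GRCm38.p6, from RefSeq. It covers 250 bases before and 50 after the gene's most upstream annotated start. Which start these cells use was not tested. Capitals mark the core TGCACNC or TGCGCNC on either strand. The Slc30a1 window is chr1:191906531-191906830 on the plus strand, and the Slc39a10 window is chr1:46925727-46926026 on the minus strand.
Slc30a1: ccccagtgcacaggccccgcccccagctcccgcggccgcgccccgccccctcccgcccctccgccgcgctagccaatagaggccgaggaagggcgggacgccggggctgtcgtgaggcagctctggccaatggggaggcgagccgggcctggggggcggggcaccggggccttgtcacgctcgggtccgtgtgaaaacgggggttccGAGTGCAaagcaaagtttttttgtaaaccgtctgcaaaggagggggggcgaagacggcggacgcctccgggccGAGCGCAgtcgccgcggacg
Slc39a10: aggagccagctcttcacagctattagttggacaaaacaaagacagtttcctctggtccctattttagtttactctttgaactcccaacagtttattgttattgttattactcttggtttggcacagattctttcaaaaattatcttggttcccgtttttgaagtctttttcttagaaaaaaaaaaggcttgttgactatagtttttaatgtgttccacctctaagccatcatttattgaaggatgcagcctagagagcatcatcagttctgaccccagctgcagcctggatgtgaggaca
The Slc30a1 window held 2 cores, both read on the opposite strand, 1 beginning 43 bases before the start and 1 at base 31 after it. The Slc39a10 window held 0, and so did its other annotated promoter. Of all 32851 promoter windows of this length, 25.7% held at least 1 core and 7.11% at least 2. Among the solute carriers, 19 of 23 genes had promoter entries, 30 in all, and 8 of these (26.7%) held a core. A match of letters is a description and shows no binding, and a core outside the window is not counted.

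Signals are the authors' linear MAS5 values, for which no detection calls were used. Changes are differences of log2(signal + 5.03), where 5.03 is the 25th percentile of all signals, from limma fitted to all 6 arrays and 27022 probe sets whose mean signal exceeded 11.7. The filter kept all 28 members. Calls required both a change of 2-fold or more and an adjusted p under 0.05 (Benjamini-Hochberg). The ratio of 3′ to 5′ Gapdh control signal, a sign of RNA and labelling quality, was 1.15 and 0.829 on the C5 arrays, 0.96 and 0.887 on the V7 arrays and 1.51 and 1.77 on the WT2 arrays. It moved with every difference from WT2 below, and its part in them was not tested. The same ratio of beta-actin did not separate the lines, with 2.91 and 1.87 in C5, 2.5 and 2.04 in V7 and 1.83 and 2.04 in WT2. Of 12 T cell markers listed, 6 had a named probe set, with a summed signal of 2745 and 2238.1 in C5, 2576.7 and 2545.5 in V7 and 4075.7 and 4141.1 in WT2. Only probe sets in the authors' lists of differences carry names. These 6 were thus chosen for differing, and their sum is no measure of T cell content. Cd3e, a chain of the T cell receptor complex, was present in all lines (901 to 1162 in C5, 917 to 1048 in V7, 1867 to 2149 in WT2). The T cell adhesion receptor Cd2 was near 0 on the C5 arrays (6.79 and 0.934) and V7 arrays (0.903 and 7.25), against 887 and 795 in WT2. The brightest probe sets of the T cell genes Cd247 and Cd6 were at 9.25 or below on every C5 and V7 array. In WT2 they had 574 and 618 (Cd247) and 63.95 and 42.6 (Cd6). Cd5 had 52.5 and 39.8 in C5, 107.6 and 148.7 in V7 and 677 and 535 in WT2. Its log2 difference of C5 from V7 was −1.37 (limma adjusted p = 0.0517). Trat1, a T cell receptor-associated adaptor, ran the other way and made up most of the C5 and V7 sums, with 1520 and 1293 in C5 and 1408 and 1470 in V7, against 6.34 and 1.21 in WT2. Markers of erythroid, epithelial, myeloid and B cells had no named probe set, which does not show that they are absent. Of 3 fibroblast markers, 2 had a named probe set. These differed from WT2 in opposite directions: the actin gene Acta2 had 52.5 and 41.3 in C5 and 63.5 and 35.7 in V7, against 5589 and 6386 in WT2, and the receptor gene Pdgfra had 47.2 and 48.2 in C5 and 66.0 and 85.8 in V7, against 1.88 and 2.70 in WT2. The part of these markers in the differences below was not tested.

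The zinc carriers held the widest differences of all the solute carriers. Slc39a4 (ZIP4, probe set 1451139_at), the importer needed for intestinal zinc uptake, had signals of 5.14 and 1.73 in C5 and 18.7 and 11.99 in V7, against 4345 and 3800 in WT2. It was thus bright in WT2 and dim on all 4 arrays of the other lines, with no overlap. The log2 difference was −8.94 (SE 0.27) for C5 with WT2 and −7.66 (SE 0.27) for V7 with WT2. Because the dim signals lie around the added constant, these sizes depend on it: they were −9.96 and −7.99 for a constant of 1, and −7.57 and −6.94 for one equal to the median signal.

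Slc39a10 (ZIP10, 1433751_at), a zinc importer of the plasma membrane, ran the other way. Its signals were 4379 and 3984 in C5 and 3771 and 3948 in V7, against 48.2 and 46.6 in WT2. The arrays of C5 and V7 were all far above those of WT2, with a log2 difference of 6.32 (SE 0.12) for C5 and 6.20 (SE 0.12) for V7. A dimmer probe set of the same gene (1439041_at) gave 404 and 416 in C5, 346 and 334 in V7, and 1.53 and 16.4 in WT2, a log2 difference of 5.13 and 4.86. Both probe sets therefore had the same direction. The lines low in one family 39 importer were high in the other, and WT2 had the reverse.

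Slc30a1 (ZnT1, 1436164_at), the zinc exporter with the cores printed above, had 40.3 and 7.93 in C5, 16.9 and 10.9 in V7, and 136 and 194 in WT2. Both other lines were below WT2, although the 2 C5 arrays lay on either side of the V7 pair. The log2 difference was −2.79 (SE 0.49) for C5, and −3.16 (SE 0.49) for V7. Leaving out single arrays moved the C5 value between −3.69 (without C5 aliquot 1) and −1.88 (without C5 aliquot 2).

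**Figure D1:**
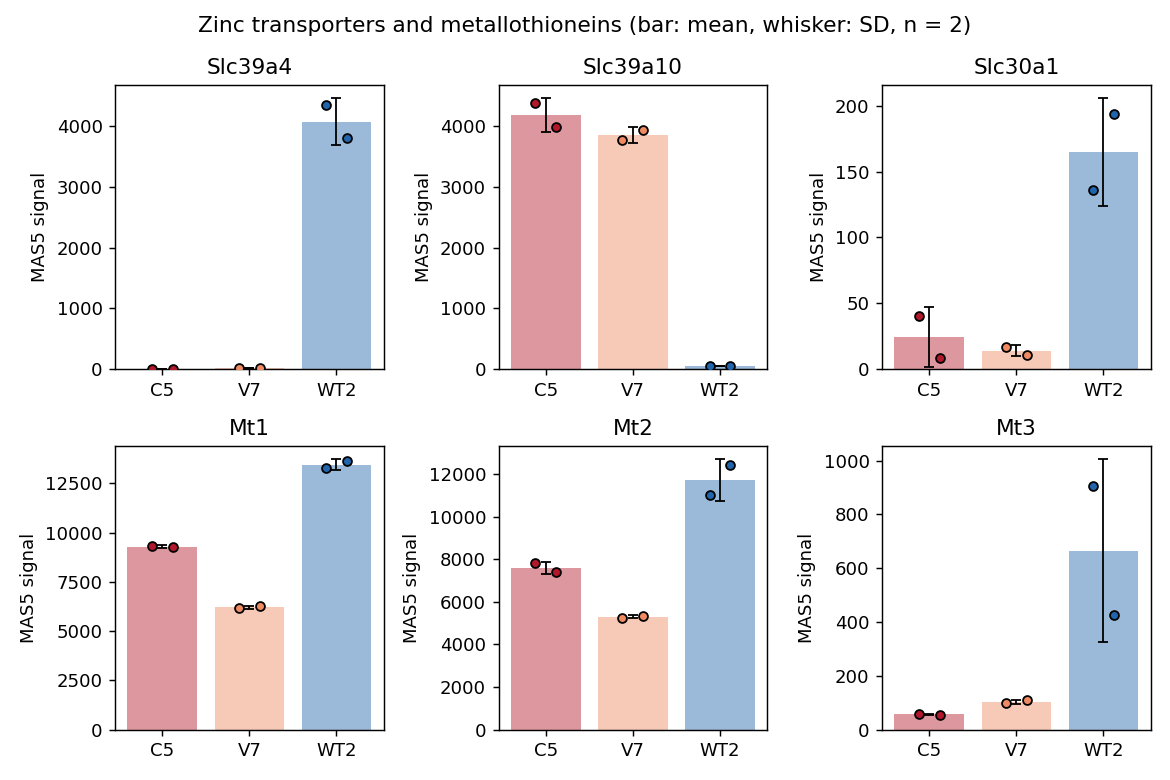
MAS5 signal (arbitrary units, y axis from 0) of 3 zinc carriers and 3 metallothioneins in the lines C5, V7 and WT2; bars are means, whiskers SD and points the 2 arrays. Slc39a4 was near 0 in C5 and V7 and at 4073 in WT2, Slc39a10 averaged 4182 and 3859 in C5 and V7 against 47.4 in WT2, and each metallothionein was highest in WT2.

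Metallothioneins are cytosolic zinc-binding proteins, and the genes of Metallothionein 1 and Metallothionein 2 share Mtf1 control with Slc30a1. Against WT2, Metallothionein 1 (its brighter probe set) and Metallothionein 2 differed by −0.53 and −0.62 on the log2 scale in C5, both under 2-fold and not called. In V7 they differed by −1.11 and −1.14, both called lower. A dimmer Metallothionein 1 probe set (1451612_at) gave −1.22 in C5, over 2-fold but not called, and −2.355 in V7, called lower. Metallothionein 1 (1422557_s_at) had 9334 and 9249 in C5, 6156 and 6272 in V7, and 13250 and 13640 in WT2. Metallothionein 2 had 7805 and 7408 in C5, 5245 and 5343 in V7, and 11010 and 12410 in WT2. For both genes each C5 array lay above each V7 array and below each WT2 array. The log2 difference of C5 from V7 was 0.58 for the brighter Metallothionein 1 probe set (limma adjusted p = 0.025). It was 0.52 for Metallothionein 2 (limma adjusted p = 0.0823). Both were under 2-fold and so not called. The dimmer Metallothionein 1 probe set gave 1.13 (limma adjusted p = 0.668), over 2-fold but not called. Metallothionein 3 had 58.6 and 54.5 in C5, 98.9 and 108.5 in V7, and 906 and 425 in WT2, and was called lower in both C5 (−3.35) and V7 (−2.53). The promoter windows of Metallothionein 1 and Metallothionein 2 held 3 and 4 metal response cores.

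Of the 2 glucose carriers, 1 was higher and 1 lower in V7 and C5. Slc2a3 (GLUT3), a high-affinity glucose importer of neurons and activated lymphocytes, had the highest mean signal of the set. Its brightest probe set (1437052_s_at) gave 5564 and 5329 in C5 and 5555 and 5559 in V7, against 483 and 584 in WT2. The C5 and V7 arrays overlapped one another and lay well above WT2, with a log2 difference of 3.35 (SE 0.12) for C5 and 3.38 (SE 0.12) for V7. Its 4 listed probe sets were all higher, by 2.25 to 4.17 in C5 and by 2.11 to 4.23 in V7 on the log2 scale, so the direction was shared and the size was not. The names of 3 of the 4 end in a suffix that marks probes shared between transcripts.

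**Figure D2:**
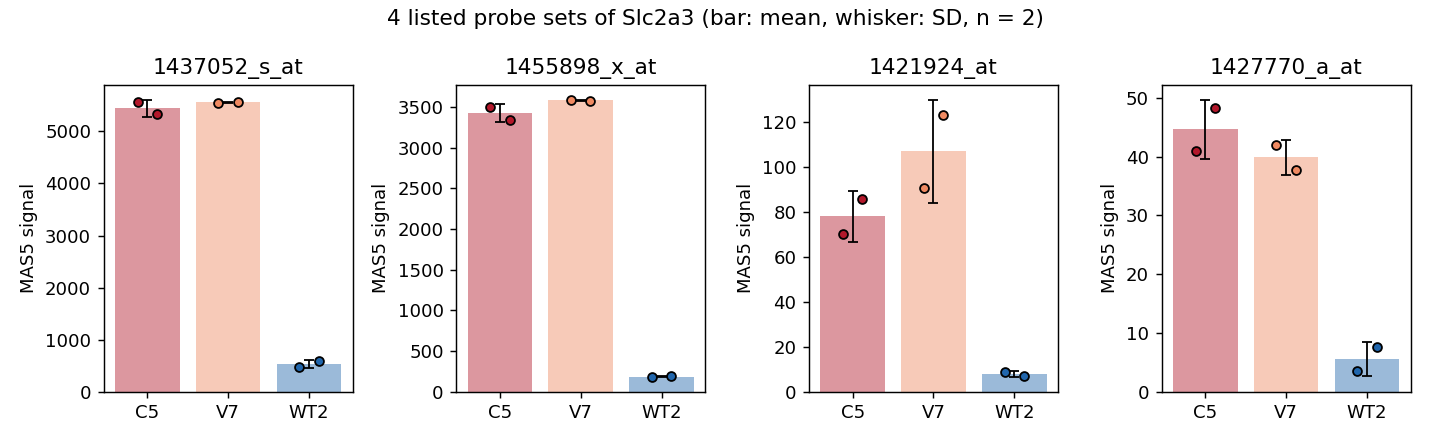
MAS5 signal (arbitrary units, y axis from 0, a separate scale for each panel) of the 4 listed Slc2a3 probe sets in C5, V7 and WT2; bars are means, whiskers SD and points the 2 arrays. In every panel both WT2 arrays lie below all C5 and V7 arrays, and the WT2 means run from 5.58 to 533.

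Slc2a8 (GLUT8), a sugar carrier of intracellular membranes, was dimmer, with 12.2 and 20.7 in C5 and 22.5 and 18.7 in V7, against 87.1 and 76.5 in WT2. Its log2 difference was −2.04 (SE 0.34) for C5 and −1.76 (SE 0.34) for V7. Slc16a1 (MCT1), which carries lactate and pyruvate, was higher in both lines. It had 3387 and 3180 in C5 and 2608 and 2903 in V7, against 1108 and 1011 in WT2, a log2 difference of 1.63 (SE 0.11) for C5 and 1.38 (SE 0.11) for V7. The C5 arrays were the highest of the 3 lines for this gene.

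Both amino acid carriers were higher in C5 and V7. Slc6a13, a sodium-coupled carrier of GABA and taurine, had 3601 and 4306 in C5 and 4198 and 4343 in V7, against 934 and 810 in WT2. Its log2 difference was 2.17 (SE 0.12) for C5 and 2.29 (SE 0.12) for V7. Slc7a7 (y+LAT1), the light chain of an exchanger of cationic and neutral amino acids, differed least of the called genes. Its signal was 793 ± 35.8 in C5 and 768 ± 28.7 in V7, against 362 ± 20.96 in WT2 (SD, n = 2 each), and the log2 difference was 1.12 and 1.08. Its dimmer probe set gave 1.32 and 1.52.

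The single nucleoside carrier, Slc28a2 (CNT2), imports purine nucleosides together with sodium. It had 48.3 and 58.1 in C5 and 60.4 and 69.1 in V7, against 315 and 324 in WT2. The log2 difference was −2.49 (SE 0.20) for C5 and −2.22 (SE 0.20) for V7. All 4 arrays of C5 and V7 were thus well below WT2, with the C5 pair below the V7 pair.

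The 3 mitochondrial carriers did not share a direction. Slc25a36, which carries pyrimidine nucleotides, had 62.0 and 62.5 in C5 and 64.7 and 54.5 in V7, against 159 and 188 in WT2, a log2 difference of −1.40 and −1.47. Slc25a44, a carrier of branched-chain amino acids, was lower by a like amount, with 45.8 ± 4.92 in C5 and 41.4 ± 3.79 in V7, against 118 ± 3.26 in WT2 (SD, n = 2 each). The dicarboxylate carrier Slc25a10 was slightly higher, with 160 and 205 in C5 and 180 and 164 in V7, against 98.7 and 107 in WT2. Its log2 difference of 0.79 for C5 and 0.71 for V7 was under 2-fold here, although the authors' deposited table lists a ratio of 2.15.

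In family 35, whose best known members carry nucleotide sugars into the Golgi, Slc35f2 was the gene that differed most. It had 145 and 105 in C5 and 112 and 74.0 in V7, against 15.9 and 1.87 in WT2. The WT2 arrays were low but far apart, so the log2 difference of 3.42 (SE 0.45) for C5 and 3.0 (SE 0.45) for V7 moved between 2.61 and 4.22 and between 2.20 and 3.80 as single arrays were left out. Slc35c2, a Golgi protein related to the GDP-fucose transporter, had 201 ± 0.856 in C5 and 213 ± 4.80 in V7, against 115 ± 10.1 in WT2 (SD, n = 2 each), under 2-fold in both lines. In the authors' deposited table it has the lowest ratio of all solute carriers, 2.04, in a list that starts at a ratio of 2; probe sets just under that limit have no name here. Slc35f3, reported as a thiamine carrier in human, was lower, with 4.31 and 7.19 in C5, 8.52 and 26.6 in V7 and 46.1 and 71.3 in WT2. The difference of V7 was −1.59 and lost its call in 7 of 13 alternatives, among them without V7 aliquot 1, where it was −0.98.

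The peptide carriers and the organic cation carrier diverged. Slc15a1 (PEPT1), which takes up di- and tripeptides in the intestine, had 13.8 and 15.5 in C5 and 19.2 and 18.9 in V7, against 233 and 343 in WT2. The C5 and V7 arrays were uniformly low, with a log2 difference of −3.87 (SE 0.28) for C5 and −3.58 (SE 0.28) for V7. Slc15a3, a lysosomal carrier of histidine and peptides, had 6.24 and 1.48 in C5 and 10.8 and 1.79 in V7, against 53.8 and 54.8 in WT2. Its dim signals make the size uncertain: −2.79 for C5 and −2.51 for V7, but −3.71 and −3.27 for a constant of 1 and −1.73 and −1.60 for the median signal as constant. The V7 call was lost without V7 aliquot 2 (−1.91) and without either WT2 aliquot (−2.53 and −2.50). Slc22a3 (OCT3), which carries monoamines and other organic cations, was higher, with 527 and 421 in C5 and 439 and 461 in V7, against 62.8 and 105 in WT2. Its log2 difference was 2.46 for C5 and 2.39 for V7 (SE 0.22 each).

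Of the 4 carriers of inorganic ions, 2 were higher and 2 lower. Slc4a7 (NBCn1), which imports sodium and bicarbonate and so raises cell pH, had 125 and 114 in C5 and 139 and 121 in V7, against 7.29 and 12.4 in WT2, a log2 difference of 3.09 (SE 0.26) and 3.20 (SE 0.26). Slc12a4 (KCC1), a potassium-chloride cotransporter of volume control, had 576 and 532 in C5 and 383 and 436 in V7, against 103.3 and 102.5 in WT2. This gene was stepped, with C5 above V7 on every array and both above WT2 (2.37 and 1.94). Its relative Slc12a5 (KCC2), known from neurons, was low throughout, with 25.1 and 26.9 in C5, 33.8 and 21.4 in V7 and 85.9 and 58.5 in WT2. Its log2 difference was −1.29 for C5 and −1.25 for V7. The V7 value was under 2-fold without V7 aliquot 2 (−0.97), without WT2 aliquot 1 (−0.99) and with the median signal as constant (−0.98). The C5 value stayed above 2-fold in every alternative, but lost its call without either C5 aliquot or without WT2 aliquot 1. Slc9a9 (NHE9), an endosomal sodium-proton exchanger, had 288 and 292 in C5 and 282 and 280.4 in V7, against 583 and 877 in WT2. Without WT2 aliquot 2 its C5 difference of −1.29 was −0.995, under 2-fold. The choline carrier-like Slc44a2 had 132 ± 0.415 in C5 and 149 ± 8.43 in V7, against 471 ± 7.56 in WT2 (SD, n = 2 each), a log2 difference of −1.80 and −1.63.

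**Figure D3:**
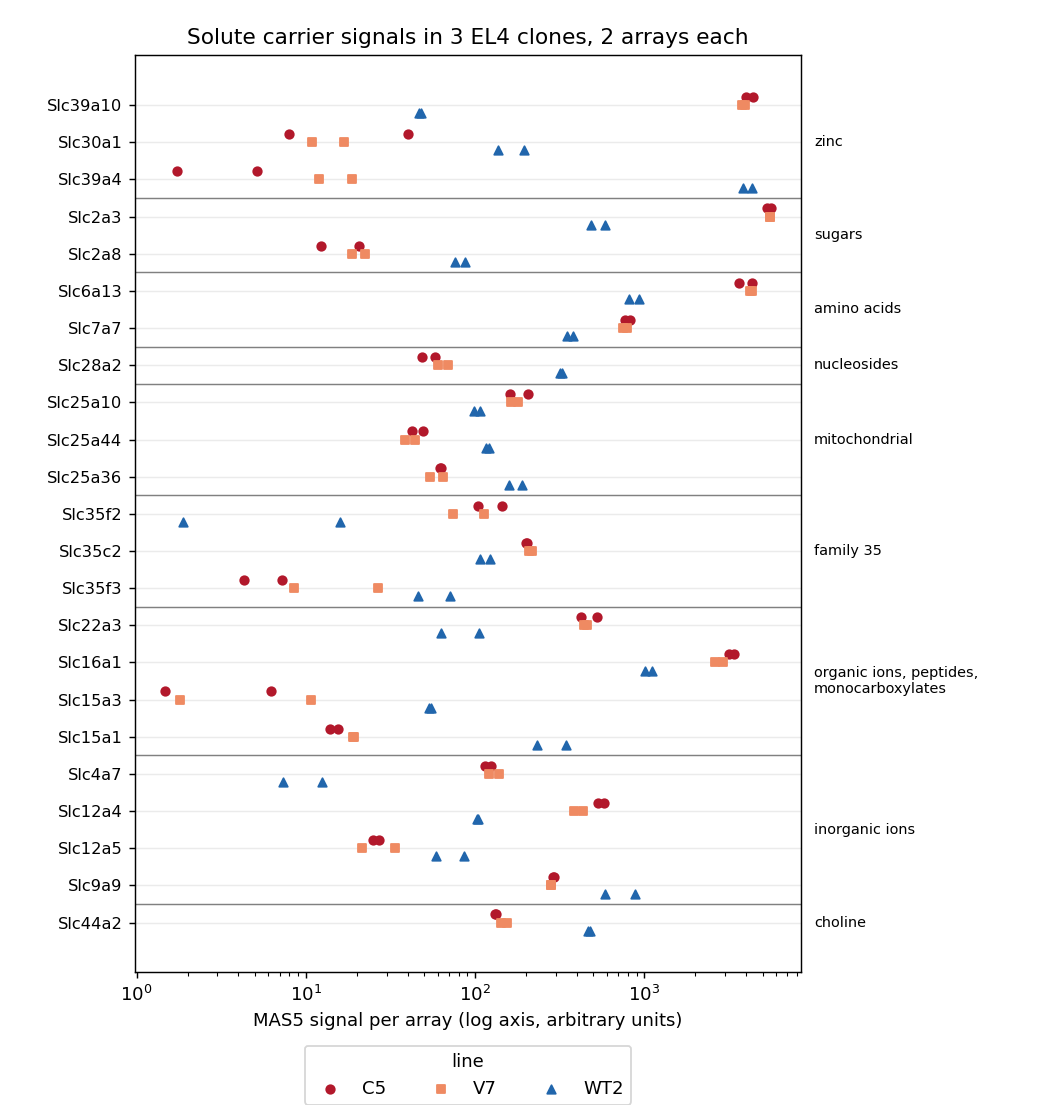
MAS5 signal per array (log x axis, arbitrary units) of the brightest listed probe set of each of the 23 genes, grouped by substrate family, with 2 points each for C5, V7 and WT2. The WT2 pair lies apart from the V7 pair in every row, as it did for 62.3% of all probe sets. V7 is above WT2 for 11 genes and below it for 12, and that contrast chose the genes. C5 and V7 arrays overlap in 13 rows.

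Over the whole set, 26 of the 28 probe sets were called between V7 and WT2, 14 higher and 12 lower in V7, where 12.5% of all 27022 probe sets were called (5.29% higher, 7.23% lower). Arrays of V7 and WT2 did not overlap for any of the 28, which was so for 62.3% of all probe sets. The list was chosen on this contrast, so nothing is read from these shares. By gene, 9 were called higher and 12 lower, and Slc25a10 and Slc35c2 were under 2-fold. For C5 with WT2, 26 of 28 probe sets were also called, 14 higher and 12 lower, against 13% of all probe sets (5.58% higher, 7.46% lower). That comparison uses the same WT2 arrays that chose the list, so its values are set beside those of V7 and no likeness is drawn from them. The median size of the log2 difference over the 23 genes was 2.37 for C5 with WT2 and 1.94 for V7 with WT2, against 0.45 over all probe sets in each.

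The comparison of C5 with V7 asked whether transporters differ between a highly metastatic and a metastatic clone. The C5 arrays had no part in listing any member, although the V7 arrays did. None of the 28 probe sets was called by limma, against 0.0999% of all probe sets (27 of 27022). At an unadjusted p below 0.05 there were 3, all brightest probe sets, against 6.5% of all probe sets. Arrays of the 2 lines did not overlap for 10 of 23 genes (43.5%), 4 higher and 6 lower in C5, against 38.9% of all probe sets (21.5% higher, 17.4% lower). The median size of the log2 difference was 0.13 over the 23 genes and 0.20 over all probe sets. These were not matched for signal or spread: the lowest mean signal of a member gene was 21.5, against a filter at 11.7. Nothing is therefore read from these medians.

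The 3 genes with an unadjusted p below 0.05 were a zinc importer, a chloride cotransporter and the lactate carrier. Slc39a4 was lower in C5 than in V7 by −1.28 on the log2 scale (95% interval −1.86 to −0.70; limma adjusted p = 0.131), between signals that are dim in both lines. For a constant of 1 that difference was −1.97, and for the median signal as constant −0.63. The variance trend takes the expected spread from the average over all 3 lines, which for this gene includes the bright WT2 arrays. Its interval and unadjusted p may therefore be too narrow and too low for the dim C5 and V7 signals. Without the trend, and with only the 2 lines compared, the limma adjusted p was above 0.131. The lowest limma adjusted p over 14 alternatives was 0.112. Slc12a4 was higher in C5 by 0.43 (0.09 to 0.78; limma adjusted p = 0.613). Slc16a1 was higher in C5 by 0.25 (0.01 to 0.50; limma adjusted p = 0.744).

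For 17 of the 23 genes the 95% interval of C5 minus V7 lay within 2-fold either way. The same share was not taken over all probe sets, so this count is a description of the members only. Bright genes had narrow bounds, such as −0.28 to 0.22 for Slc2a3, −0.15 to 0.38 for Slc39a10 and −0.38 to 0.15 for Slc6a13. Some dim genes also lay within 2-fold, such as Slc15a1 (−0.92 to 0.33) and Slc12a5 (−0.76 to 0.67). Wider intervals did not exclude a 2-fold difference, as for Slc30a1 (−0.70 to 1.46), Slc15a3 (−1.59 to 1.04), Slc35f2 (−0.57 to 1.40) and Slc35f3 (−2.05 to 0.15). The spread is pooled over the 3 lines, so that of Slc35f2 takes in its WT2 pair (15.9 and 1.87). For these genes the 2 arrays of a line limit what can be said.

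**Figure D4:**
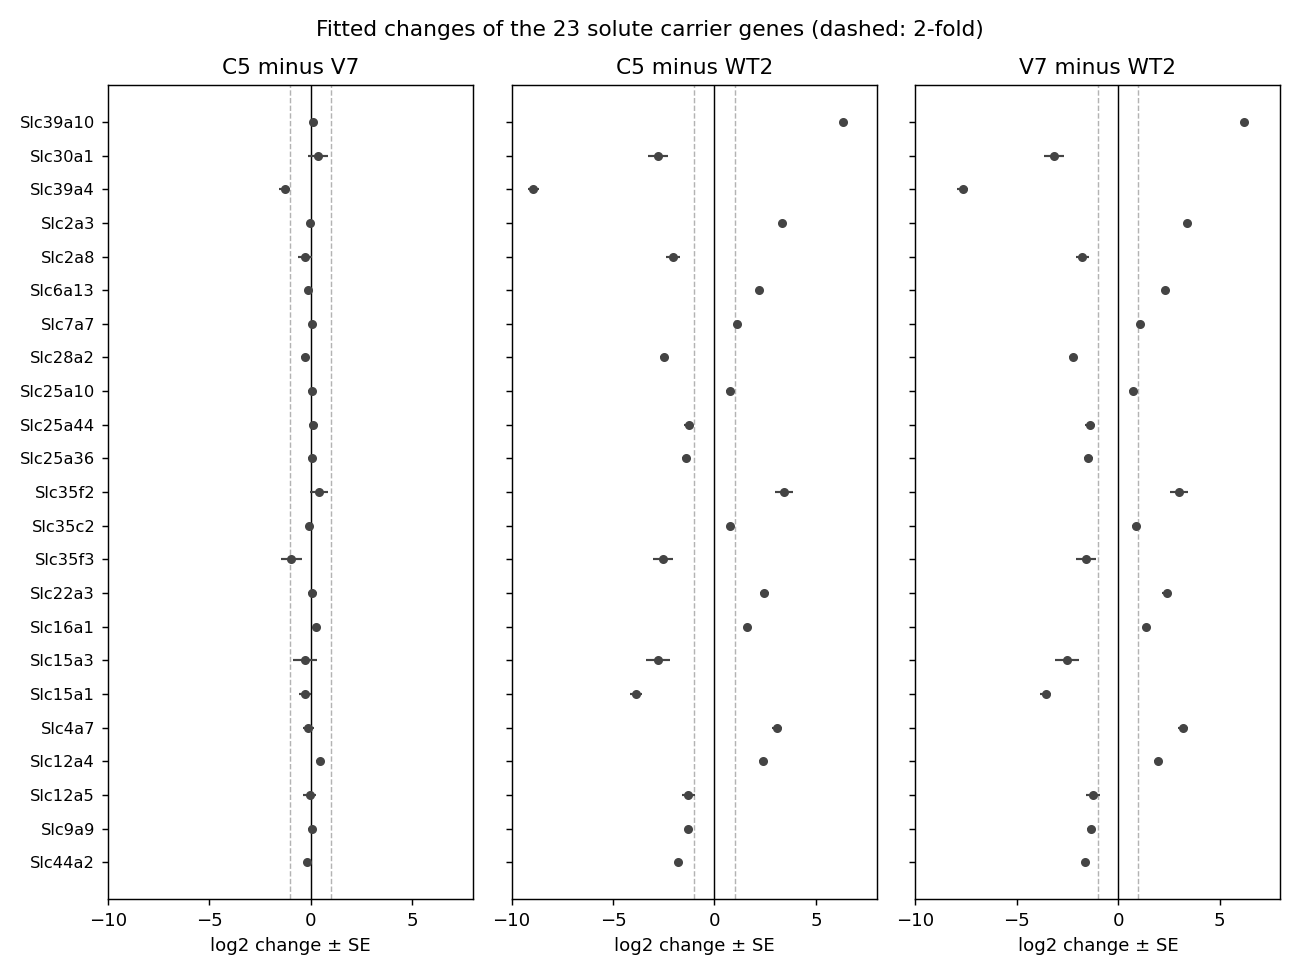
Fitted log2 changes (x axis) with SE (whiskers) of the 23 genes in C5 minus V7, C5 minus WT2 and V7 minus WT2; dashed lines mark 2-fold. In C5 minus V7 the points run from −1.28 (Slc39a4) to 0.43 (Slc12a4), while against WT2 they run from −8.94 to 6.32 in C5 and from −7.66 to 6.20 in V7.

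Other genes of membrane transport were taken from the same lists by the start of their names (ATP-binding cassette proteins, ATPases, ion channels and metallothioneins), which also takes in channel-related and AAA-domain proteins that carry nothing. Of these 32 genes, 11 were called higher and 14 lower in C5 than in WT2, against 5.58% and 7.46% of all probe sets. In V7, 11 were called higher and 14 lower than in WT2, against 5.29% and 7.23% of all probe sets. Between C5 and V7, 0 of the 32 were called by limma, against 0.0999% of all probe sets. An unadjusted limma p below 0.05 was found for 7 of the 32, against 6.5% of all probe sets. Arrays of these 2 lines did not overlap for 19 of the 32, against 38.9% of all probe sets. The median size of the log2 difference was 1.57 for C5 with WT2 and 1.56 for V7 with WT2, against 0.45 over all probe sets in each. Between C5 and V7 it was 0.26, against 0.20 over all probe sets. These genes were listed by the same contrast as the solute carriers, and no test was made between the groups.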

How the data were processed

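Total RNA of 2 aliquots of each clone was labelled with biotin and hybridised to Affymetrix mouse arrays, per the labels' protocols. The authors deposited linear signal intensities, made with MAS5 per the submitters' processing notes. All 6 arrays had a 2% trimmed mean of 125. The authors' deposited lists hold log2 means and SEMs, a fold ratio and p-values of a t-test, per the file headers. They gave the member names, and their ratio is quoted where named.

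Symbols were formed from the family and member numbers in the deposited names and found in the RefSeq gene table (GRCm38.p6); 7 of 28 were also matched by accession. Control probe sets (64) were left out. limma 3.58.1 (R 4.3.3) was fitted with 1 mean per line and a variance trend (3 residual and 8.47 prior degrees of freedom), two-sided, with adjustment over all probe sets tested. It was also run on simulated data, with changes of over 2-fold planted in brighter probe sets only. Dim genes and smaller differences were not covered by that run. Summaries used Python 3.11.15, numpy 2.4.6 and pandas 2.3.3, figures matplotlib 3.10.9.

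The brightest listed probe set stood for a gene. Values on every array were to be given for the 4 highest and 4 lowest differences of V7 from WT2, genes called between C5 and V7, the 2 brightest genes and the widest of each family; the others follow for completeness. Members and lists were chosen with earlier results of these data known. Alternatives changed the added constant, normalization, filter, variance trend, aliquot term, arrays and probe set rule.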

Additional observations from a re-analysis of the deposited data

How the results depend on the processing

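No count of called probe sets or genes moved by over 1.5 times. Of the 28 probe sets, 0 were called between C5 and V7 in every alternative, 23 to 26 between C5 and WT2 and 23 to 26 between V7 and WT2. All 23 genes kept their direction against WT2 in every alternative. Between C5 and V7, where none was called, 13 of 23 did. Of 323 alternative values for V7 with WT2, 13 lost the call, in Slc12a5, Slc15a3 and Slc35f3, and of 323 for C5 with WT2, 4 did, in Slc12a5 and Slc9a9. Quantile normalization moved the median log2 change of all probe sets from −0.13 to 0.02 for V7 with WT2, and 11 genes in place of 10 then had C5 and V7 arrays that did not overlap. Of the 32 other transport genes, 20 to 26 were called for V7 with WT2 and 19 to 25 for C5 with WT2. The difference of aliquot 1 from aliquot 2 within a line was correlated between lines across probe sets. The correlation was 0.04 (C5 and V7), 0.003 (C5 and WT2) and −0.04 (V7 and WT2), so no large effect shared by same-numbered aliquots was seen. Whether same-numbered aliquots were handled together is not known. With the aliquot number as a block 0, 26 and 26 solute carrier probe sets were called for C5 with V7, C5 with WT2 and V7 with WT2. Signals near the added constant, and 2 arrays per line, limit the precision of the dim genes. The filter at the 60th percentile left out 3 of the 28 probe sets.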
